A study of Mus musculus with 117 samples.

Results

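The saliva proteins Bpifa2, Amy1, Smr3a, Prpmp5 and Dnase1 were followed mouse by mouse in the exocrine glands of 2 immunodeficient mouse strains. They are 5 of the 15965 genes that at least 1 probe set names alone. Every probe set annotated to 1 of these 5 symbols alone was taken, which gave 7 of the 36899 probe sets on 3 Affymetrix array designs, and all 7 lie on design A. Bpifa2, Amy1 and Smr3a have 1 probe set each (100080_at, 101058_at and 102739_s_at). Prpmp5 (98382_f_at and 98383_r_at) and Dnase1 (92865_at and 160452_at) each have 2. A further probe set names Amy1 together with Rnpc3 and was not counted. The genes were chosen for values already seen in these samples, so their levels and differences are a description with no p-value, and calls from the fit over all probe sets are given for them only as counts.

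The mice were females of B6.CB17-Prkdc scid/SzJ (B6-scid) and NOD.CB17-Prkdc scid/J (NOD-scid). All 8 groups carry the Prkdc scid mutation, which leaves mice without mature T and B cells but with innate immune cells, so the B6-scid controls are immunodeficient as well. The 39 samples comprise pancreas of 6-week-old mice, submandibular gland of 9-week-old and of 15-week-old mice, and lacrimal gland of 15-week-old mice. Each group holds 5 numbered replicates, each taken as a separate mouse, except that NOD-scid lacrimal gland holds 4. Whole glands were homogenised. The labels say that submandibular glands were freed from sublingual gland, connective tissue and fat, do not mention the parotid gland, and do not say which lacrimal gland was taken. Nor do they say whether the 15-week submandibular and lacrimal glands came from the same mice. In RNA from whole glands, fewer cells of a type and less RNA per cell cannot be told apart.

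Saliva is made by several glands that differ in what they secrete. In the mouse the parotid gland is a serous gland known for amylase, proline-rich proteins and the parotid secretory protein encoded by Bpifa2, and it lies close both to the submandibular gland and to the extraorbital lacrimal gland below the ear. Bpifa2 belongs to the BPI fold family of lipid-binding and bacteria-binding proteins. Amy1 encodes the amylase of saliva, while the closely related Amy2 genes encode that of the pancreas. Prpmp5 is a proline-rich protein, Smr3a a small androgen-regulated-type saliva protein, and Dnase1 a secreted enzyme that cuts DNA. Tear glands also secrete Dnase1.

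Levels are given as scaled signals, the deposited array intensities brought to a trimmed mean of 500 per array. Differences are log2 differences of signal + 32, NOD-scid minus B6-scid, with their standard error from limma. A probe set passed the signal filter where it reached 100 on at least 4 samples of the gland, and was called at an adjusted p under 0.05. No detection calls were used, and signals under 100 are given as listed with nothing read from their order. Each sample was read on 3 arrays, so the number of mice limits the precision. The pancreas and lacrimal labels held against defining markers, and the submandibular label was read from a list. Cela1, a pancreatic elastase, lay between 117981 and 161665 in the 10 pancreas samples and reached at most 19646 elsewhere. Ltf (lactoferrin, a tear protein) was between 6010 (B6-scid sample 2) and 14208 in the 9 lacrimal samples and at most 335 elsewhere. The summed signal of 16 submandibular genes was 454258 or more in all 20 submandibular samples, against at most 429719 in pancreas and 201101 in lacrimal gland. Prol1, a mucin-like saliva protein of that list, was at 62089 or more in all 20 but does not define the gland, since it read 39542 to 97806 in B6-scid lacrimal gland.

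B6-scid lacrimal samples 2 and 3 stood apart from the other 7 lacrimal samples in these genes, and the lacrimal strain differences of these genes are given below with and without them. The 7 probe sets made up 6.09% and 7.02% of the summed signal of design A in these 2 samples. The same share was 0.543% to 0.559% in the other 3 B6-scid and 0.822% to 0.958% in the 4 NOD-scid lacrimal samples.

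The sequences before the transcription starts are shown because Bpifa2, Smr3a, Prpmp5 and Amy1 were high together in those 2 lacrimal samples from 4 different chromosomes. Each is the 250 bases before an annotated start in RefSeq, build GRCm38.p6, written 5′ to 3′ on the gene's strand. Capitals mark the letters TATAA read on either strand.
Bpifa2, chr2:154008026-154008275, plus strand: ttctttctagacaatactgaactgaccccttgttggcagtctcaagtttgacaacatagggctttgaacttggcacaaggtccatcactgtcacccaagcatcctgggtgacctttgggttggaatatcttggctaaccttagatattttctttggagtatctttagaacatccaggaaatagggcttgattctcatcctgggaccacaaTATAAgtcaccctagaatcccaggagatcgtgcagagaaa
Smr3a, chr5:88002275-88002524, plus strand: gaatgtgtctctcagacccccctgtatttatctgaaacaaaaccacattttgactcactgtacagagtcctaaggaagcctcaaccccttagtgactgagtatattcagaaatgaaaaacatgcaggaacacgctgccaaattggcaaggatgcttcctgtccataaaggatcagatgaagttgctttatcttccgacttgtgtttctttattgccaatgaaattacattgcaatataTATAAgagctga
Prpmp5, chr6:132314744-132314993, minus strand: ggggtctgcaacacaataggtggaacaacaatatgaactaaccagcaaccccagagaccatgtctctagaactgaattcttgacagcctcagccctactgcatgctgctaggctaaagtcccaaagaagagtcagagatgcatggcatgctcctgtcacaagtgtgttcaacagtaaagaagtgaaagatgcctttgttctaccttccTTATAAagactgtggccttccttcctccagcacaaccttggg
Amy1, upstream start, chr3:113577751-113578000, minus strand: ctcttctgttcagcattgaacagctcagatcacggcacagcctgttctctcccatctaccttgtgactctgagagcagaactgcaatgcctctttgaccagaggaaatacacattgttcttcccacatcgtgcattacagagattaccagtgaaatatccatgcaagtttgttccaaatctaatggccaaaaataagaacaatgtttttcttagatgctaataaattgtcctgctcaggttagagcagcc
Amy1, downstream start, chr3:113574763-113575012, minus strand: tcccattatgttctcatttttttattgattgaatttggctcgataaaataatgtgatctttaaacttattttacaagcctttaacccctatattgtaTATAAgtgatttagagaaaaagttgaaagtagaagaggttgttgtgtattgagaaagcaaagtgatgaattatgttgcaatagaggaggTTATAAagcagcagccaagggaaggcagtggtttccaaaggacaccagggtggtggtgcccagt

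TATAA on the gene's own strand begins 40 bases before the start in Bpifa2, 41 in Prpmp5 and 12 in Smr3a. Before the downstream start of Amy1 it begins at 153 and at 63 bases, and the window of the upstream start, the one known for use in the parotid gland, holds no match. In Prpmp5 and in the match nearer to the Amy1 start, the letters also read TATAA on the other strand, 1 base further out, so both matches overlap. Of 32851 RefSeq windows of 300 bases, 24.9% hold TATAA on either strand. On the gene's own strand 45 to 15 bases before the start, 3.89% hold it, among them those of Bpifa2 and Prpmp5. A match is a description of these letters and no more. The 300-base window of Prpmp5 was 90.9% identical to that of its neighbour Prb1 and 54.3% identical to that of Prp2, and the window of Smr3a was 81.6% identical to that of Smr2. Between genes of different chromosomes the values were 50.8% (Bpifa2 and Prpmp5), 50.4% (Bpifa2 and Smr3a) and 54.2% (Smr3a and Prpmp5). The last is as high as that of Prpmp5 and Prp2, so no likeness is read from values of this size. Probe sets of the _f_at and _s_at kind can read several transcripts of a family, and the transcript sequences under the probes were not compared.

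Bpifa2, the parotid secretory protein, lay between 475 and 20018 in the 20 submandibular samples, and was lower in the NOD-scid than in the B6-scid mice at 9 weeks and mixed at 15 weeks. At 9 weeks the B6-scid mice read 6825, 1647, 2681, 15668 and 7922. The NOD-scid mice of that age read 1184, 563, 475, 1483 and 618. All 5 B6-scid mice lay above all 5 NOD-scid mice, although the lowest B6-scid mouse (1647) came close to the highest NOD-scid mouse (1483). The log2 difference was -2.68 (SE 0.71). Leaving out each submandibular sample in turn gave -3.09 to -2.28.

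At 15 weeks the B6-scid mice fell into a wide spread of 15142, 1685, 20018, 1708.5 and 1279, against 1116, 1082, 808, 1278 and 2131 in NOD-scid. Samples 1 and 3 of B6-scid were high and the other 3 lay within the range of NOD-scid, so the groups overlapped. The difference was -1.72 (SE 0.71). It was -1.15 without B6-scid sample 3, the largest move among the 20 samples left out in turn. Between 9 and 15 weeks Bpifa2 differed by -0.34 (SE 0.71) in B6-scid and by 0.61 (SE 0.71) in NOD-scid, with overlapping groups in both strains.

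In pancreas Bpifa2 was low. It read 95.9, 390.1, 320.0, 347 and 317 in B6-scid and 222, 82.1, 105, 112 and 67.1 in NOD-scid. Sample 1 was the exception in both strains, the lowest of B6-scid and the highest of NOD-scid. The groups overlapped through B6-scid sample 1 alone, since NOD-scid sample 1 (222) lay below the other B6-scid mice (317 to 390.1). The difference was -1.09 (SE 0.36), and -1.40 without B6-scid sample 1.

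In lacrimal gland Bpifa2 reached its highest values of the 39 samples in 2 mice and was low in the other 7. B6-scid read 369, 160308, 268249, 395 and 348, and NOD-scid read 75.8, 72.5, 70.3 and 71.2. Every B6-scid sample was above every NOD-scid sample, and this held for the 3 samples left when 2 and 3 were set aside. The difference was -5.55 (SE 2.10) with all 9 samples. Without samples 2 and 3 it was -1.94, with means of 72.5 ± 2.41 (SD, n = 4) in NOD-scid and 370.4 ± 23.8 (SD, n = 3) in B6-scid, but the probe set then did not pass the signal filter and had no fitted error. Samples 2 and 3 were 406-fold and 679-fold above the highest of the other 3 B6-scid samples. Set in order of median, Bpifa2 was highest in B6-scid submandibular gland at 9 weeks (6825), then at 15 weeks (1708.5), then in NOD-scid submandibular gland at 15 weeks (1116) and 9 weeks (618). B6-scid lacrimal gland (395), B6-scid pancreas (320.0), NOD-scid pancreas (105) and NOD-scid lacrimal gland (71.85, below 100) followed. Neighbours in that order overlapped in range, except that all NOD-scid submandibular samples of 9 weeks were above the 3 lower B6-scid lacrimal samples.

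**Figure D1:**
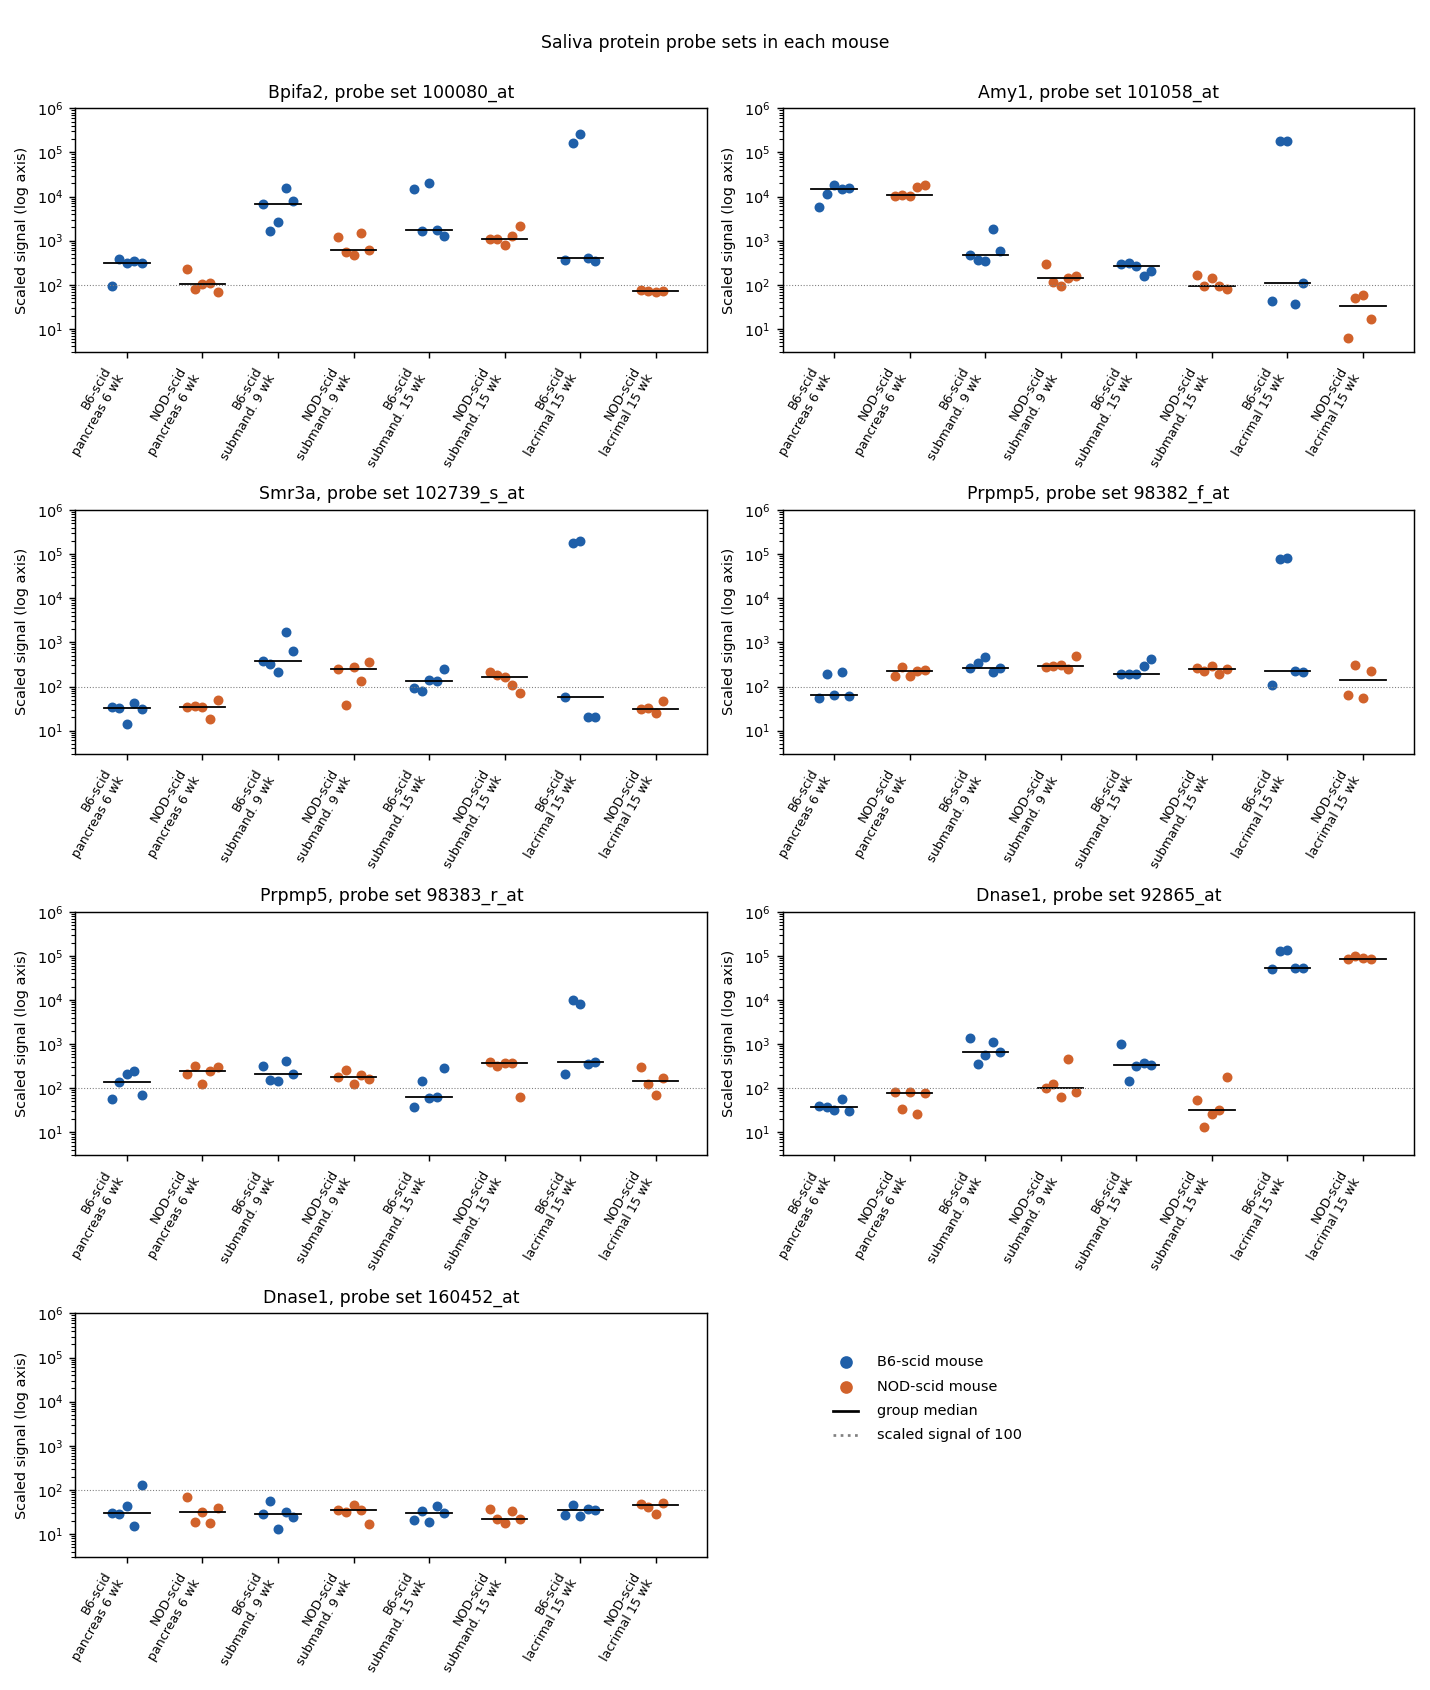
Scaled signal (log axis) of the 7 probe sets in each of the 39 mice, by group, with B6-scid in blue, NOD-scid in orange, the group median as a black line and a scaled signal of 100 as a dotted line. B6-scid lacrimal samples 2 and 3 lie far above the rest for Bpifa2, Amy1, Smr3a and Prpmp5, while Dnase1 (92865_at) is at 51595 or more in all 9 lacrimal samples.

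The other BPI fold genes were measured to see whether Bpifa2 moved with its family. Of 17 listed genes, 8 were on the arrays, and Bpifb2 was the 1 gene of them called in any of the 6 comparisons. Bpifa2 itself was called in none of them. Bpifb2, a secreted relative, read 2394, 1507, 2035, 1359 and 1683 in B6-scid submandibular gland at 15 weeks and 371, 900, 526, 472 and 751 in NOD-scid. The strains did not overlap, and the difference was -1.56 (SE 0.35, limma adjusted p = 0.0461). At 9 weeks it was -1.42 (SE 0.35, limma adjusted p = 0.0574), which missed the threshold. A second, dim probe set of Bpifb2 did not show this, at -0.26 (SE 0.21) at 9 weeks and 0.15 (SE 0.21) at 15 weeks. Over the 6 relatives of Bpifa2 tested, the median log2 difference was -0.19 at 9 weeks and 0.08 at 15 weeks, beside 0.03 and 0.01 over all probe sets tested. The Bpifb2 call ended when any 1 of 15 of the 20 submandibular samples was left out, with an adjusted p of 0.0118 to 0.148 over the 28 alternatives in limma. In B6-scid lacrimal samples 2 and 3, where Bpifa2 was at 160308 and 268249, its relatives read far less. Bpifb1, a larger relative on the same chromosome, was at 281 and 151 (on 1 of its 2 probe sets, at most 177 elsewhere), and Bpifb2 was at 1378 and 241, against 123 to 388 in the other 7 lacrimal samples.

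Amy1 was high in pancreas, low in submandibular gland and at the extremes in lacrimal gland. In pancreas it ranged from 5872 to 18316 over the 10 mice without separating the strains, with a difference of 0.07 (SE 0.32). The Amy2 genes of the pancreas are close paralogues, and a probe set shared by several Amy2 symbols read 107347 to 176029 in the same mice, so how much of the pancreatic signal of the Amy1 probe set came from Amy1 cannot be told apart from Amy2 signal. The 1 probe set of a single Amy2 gene, Amy2a5, was 1.35 higher in NOD-scid pancreas (SE 0.38, limma adjusted p = 0.216), which did not pass.

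In submandibular gland at 9 weeks Amy1 read 473, 363, 348, 1812 and 579 in B6-scid and 289.5, 117, 91.9, 145 and 160.4 in NOD-scid. The groups did not overlap, and B6-scid sample 4 was far above its group. The difference was -1.74 (SE 0.37), and -1.35 without that sample. Pancreatic transcripts were present in the same samples. Over 18 measured pancreatic acinar genes of 25 listed, the summed signal was 5673 to 21295 in B6-scid and 14033 to 230447 in NOD-scid. NOD-scid sample 1 held the highest sum, with Cela1 at 19646 and the shared Amy2 probe set at 29649, and it was also the highest NOD-scid mouse for Amy1. In B6-scid sample 4 the sum (21295) was near that of sample 1 (21014), while the shared Amy2 probe set, at 5497, was the highest of its group (478 to 3025 in the others). The part of pancreatic amylase in these values was not tested.

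At 15 weeks Amy1 read 303, 316, 272, 156 and 204 in B6-scid and 168, 92.3, 140.1, 93.8 and 79.7 in NOD-scid. Only B6-scid sample 4 and NOD-scid sample 1 crossed, and the difference was -0.94 (SE 0.37). The shared Amy2 probe set was below 100 in all 5 B6-scid and in 2 of the 5 NOD-scid mice of that age, and at 164 to 2821 in the other 3 NOD-scid mice. With age Amy1 differed by -1.15 (SE 0.37) in B6-scid, where the 2 ages did not overlap, and by -0.35 (SE 0.37) in NOD-scid, where they did. The acinar sum was lower at 15 weeks too, at 3258 to 4587 in B6-scid and 4497 to 12716 in NOD-scid.

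In lacrimal gland Amy1 read 43.0, 185011, 181639, 37.0 and 111 in B6-scid and 6.28, 50.9, 58.1 and 16.6 in NOD-scid. Samples 2 and 3 were above every pancreas sample on this probe set, while the other 7 lacrimal samples were at 111 or less. The other acinar genes were not high with Amy1. In samples 2 and 3 the summed signals of the 18 acinar genes, 14608 and 24469, were not above the highest of the other B6-scid lacrimal samples (28309.6), and the shared Amy2 probe set was at 135 and 14.5. A second probe set shared by Amy2 symbols, of the _f_at kind, was at 8917 and 5153 in samples 2 and 3 and at most 262 in the other 7. Amy2a5 was at most 30.5 in the 5 B6-scid lacrimal samples. The log2 difference of Amy1 between the strains was -4.96 with all samples and -0.57 without samples 2 and 3, below the signal filter both times.

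Smr3a, like Amy1, was low or moderate in most mice and very high in the same 2 lacrimal samples. In pancreas it stayed between 14.3 and 49.9. Submandibular glands of 9 weeks read 375, 323, 218, 1761 and 649 in B6-scid and 255, 39.04, 271, 137 and 361 in NOD-scid. The strains overlapped, B6-scid sample 4 was again far above its group, and the difference of -1.35 (SE 0.49) was -0.92 without that sample. At 15 weeks the mice read 94.6, 80.7, 138, 133 and 244 in B6-scid and 211, 179, 164, 110.3 and 69.9 in NOD-scid, a difference of 0.08 (SE 0.49). Smr3a was lower at 15 than at 9 weeks by -1.73 (SE 0.49) in B6-scid and by -0.30 (SE 0.49) in NOD-scid, with overlapping ages in both. In lacrimal gland B6-scid read 59.1, 179935, 195548, 20.2 and 20.7, and the 4 NOD-scid samples read 24.8 to 47.8. Samples 2 and 3 were again alone, and without them the difference was 0.05 instead of -4.56, below the signal filter in both cases. The neighbouring gene Smr2, whose start window was compared above, stayed low: it read 184 and 298 in samples 2 and 3 and 63.6 to 153 in the other 7 lacrimal samples.

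Prpmp5, the proline-rich protein, was at 502 or less everywhere except in those 2 lacrimal samples. Probe set 98382_f_at read 110.2, 76679, 82367, 221 and 212 in B6-scid lacrimal gland and 54.7 to 312 in NOD-scid, and in the 30 samples of pancreas and submandibular gland it lay between 53.7 and 502. Probe set 98383_r_at read 211, 10202, 8235, 349 and 387 in B6-scid lacrimal gland, 72.0 to 298 in NOD-scid, and 36.9 to 423 in pancreas and submandibular gland. Both probe sets thus set samples 2 and 3 apart, at different heights. Their strain differences in lacrimal gland were -3.77 (SE 2.04) and -2.81 (SE 1.15) with all samples, and -0.33 (SE 0.54) and -0.90 (SE 0.41) without samples 2 and 3. In submandibular gland the probe sets did not move alike between the strains: 98382_f_at differed by 0.08 (SE 0.25) at 9 weeks and -0.03 (SE 0.25) at 15 weeks, while 98383_r_at differed by -0.30 (SE 0.44) and 1.22 (SE 0.44). In pancreas they differed by 0.87 (SE 0.33) and 0.71 (SE 0.36), with overlapping groups.

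Dnase1 was a transcript of the lacrimal gland in both strains and, unlike Bpifa2, did not depend on samples 2 and 3 to be high there. Probe set 92865_at read 51595, 129414, 132484, 52380.5 and 52203 in B6-scid lacrimal gland and 84071, 98167, 89557 and 83632 in NOD-scid. Samples 2 and 3 were the highest of all 9, at 2.47 and 2.53 times the highest of the other B6-scid samples. With all samples the strains overlapped and the difference was 0.24 (SE 0.35). Without samples 2 and 3 NOD-scid was higher in every mouse, at 88857 ± 6767 (SD, n = 4) against 52060 ± 412 (SD, n = 3), and the difference was 0.77 (SE 0.18), which the fit did not call. The other probe set of Dnase1, 160452_at, lay between 13.3 and 126.6 in all 39 samples and showed none of this, so the 2 probe sets do not measure alike.

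Submandibular Dnase1 was far lower than lacrimal Dnase1 on the same probe set and differed between the strains at both ages. At 9 weeks it read 1398, 357, 551, 1109 and 669 in B6-scid and 102, 127, 62.8, 457 and 81.1 in NOD-scid. NOD-scid sample 4 was the only NOD-scid mouse to reach the B6-scid range, and the difference was -2.24 (SE 0.51). At 15 weeks it read 1024, 148, 319.7, 366 and 329.9 in B6-scid and 53.8, 13.5, 25.8, 32.6 and 180.3 in NOD-scid. NOD-scid sample 5 alone reached above the lowest B6-scid mouse, and the difference was -2.32 (SE 0.51). Some NOD-scid values were under 100, at 62.8 and 81.1 at 9 weeks and in every mouse but sample 5 at 15 weeks. The size of both strain differences thus rests in part on signals near the bottom of the scale. Dnase1 was lower at 15 than at 9 weeks by -0.95 (SE 0.51) in B6-scid and -1.04 (SE 0.51) in NOD-scid, with overlap. In pancreas it stayed between 26.4 and 83.8. None of the 6 other deoxyribonuclease genes measured (of 8 others listed), among them Dnase1l3 and Dnase2b, was called in any comparison, with a median log2 difference of -0.21 at 9 weeks and 0.03 at 15 weeks over the 5 tested.

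**Figure D2:**
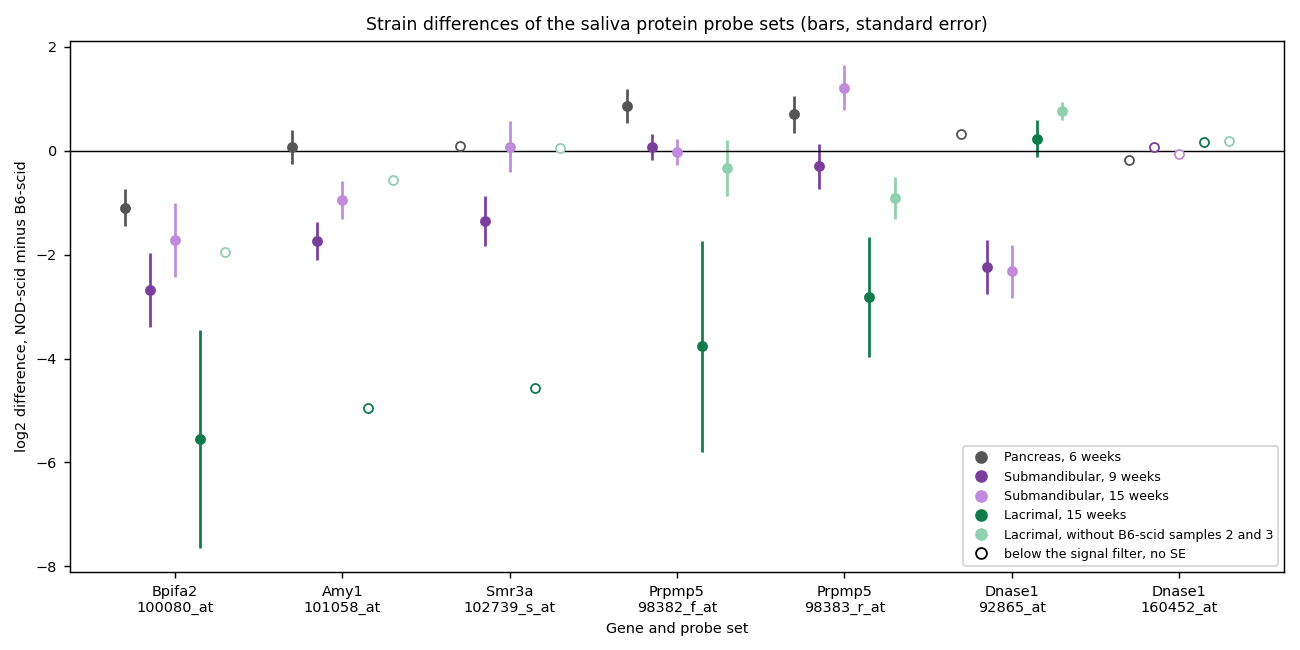
Log2 difference of signal + 32, NOD-scid minus B6-scid, for the 7 probe sets in each gland and age (points, with standard errors as bars), and open points where the probe set did not pass the signal filter. The large lacrimal differences of Bpifa2 (-5.55) and Prpmp5 (-3.77 and -2.81) shrink to -1.94, -0.33 and -0.90 without B6-scid samples 2 and 3, while those of Dnase1 (92865_at) in submandibular gland are -2.24 at 9 weeks and -2.32 at 15 weeks.

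The calls among these genes are given here beside the share over all probe sets tested. At 9 weeks 6 of the 7 probe sets passed the signal filter in submandibular gland and 2 were called lower in NOD-scid, Amy1 and Dnase1 (92865_at). Over all 32136 probe sets tested there, 0.526% were called lower. Bpifa2 and Amy1 were the 2 whose groups did not overlap with NOD-scid lower, as for 1.02% of all tested. At 15 weeks 6 passed and 1, Dnase1, was called lower, against 0.345% of all. In pancreas 4 passed and 0 were called (limma, 0.442% of all called). In lacrimal gland 4 passed and 0 were called (0.957% of all called), and 1, Bpifa2, had no overlap with NOD-scid lower (3.21% of all). Without samples 2 and 3, 3 passed and 0 were called (0.428% of all), and 1, Dnase1, had no overlap with NOD-scid higher (7% of all). With age 0 of 6 were called in B6-scid (1.06% of all called) or in NOD-scid (0.797%), and Amy1 was the 1 without overlap in B6-scid, lower at 15 weeks (1.75% of all). Amy1 at 9 weeks kept its call in 18 of the 20 fits that left out 1 submandibular sample and lost it without NOD-scid sample 2 or 3 of 9 weeks. Dnase1 kept its call in 8 of 20 such fits at 9 weeks and in 7 of 20 at 15 weeks. Since the genes were chosen on these values, nothing is read from the counts.

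In B6-scid lacrimal samples 2 and 3 the saliva proteins were part of a small set. Of 36701 probe sets that are not controls, 14 read at least 1000 in both samples and at least 10-fold above all 7 other lacrimal samples, and 7 were at least 100-fold above. This set was drawn after the values were seen. It held 5 of the 7 saliva protein probe sets, those of Bpifa2, Amy1, Smr3a and Prpmp5. Chia1, an acidic chitinase that is secreted, read 127925 and 51565 in the 2 samples and at most 342 in the other 7. Gm4736, which RefSeq also lists as Mp4 and Mp6 and which lies with Prpmp5 on chromosome 6, read 60966 and 53999 against at most 59.99. The proline-rich protein Prp2 (an _r_at probe set) read 25279 and 15498.5, against at most 1075. Ggh, a hydrolase of folate polyglutamates, read 29721 and 11013 against at most 507, and it was also at 7945 to 13091 in pancreas. Tbc1d10a, Cldn22, a tight junction claudin, and St3gal6, a sialyltransferase, were the other named genes. The last 2 probe sets were one with no gene name and the second shared Amy2 probe set. Chia1 and Gm4736 were at most 377 and 177 in the 30 samples of pancreas and submandibular gland, those with high Bpifa2 included. The height was not common to all 14: Chia1, Ggh, Cldn22 and St3gal6 were more than 2-fold higher in sample 2 than in sample 3, whereas Bpifa2 was higher in sample 3.

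**Figure D3:**
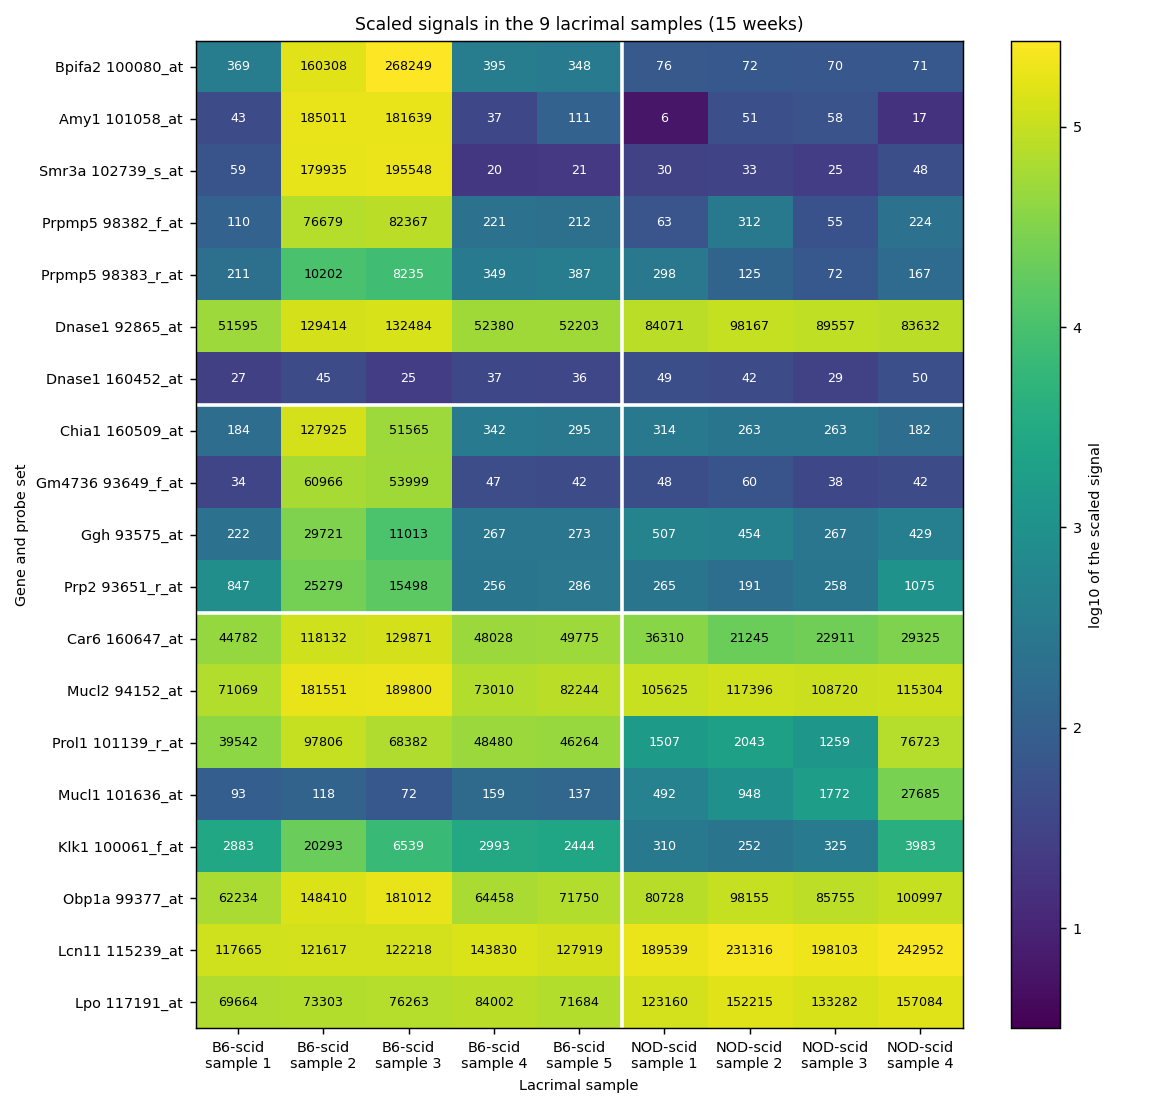
Scaled signals in the 9 lacrimal samples, coloured by log10 and printed in each cell as whole numbers, for the 7 saliva protein probe sets (top), 4 of the probe sets high with them (middle) and other secretory transcripts (bottom). B6-scid samples 2 and 3 stand apart for Bpifa2, Amy1, Smr3a, Prpmp5, Chia1, Gm4736, Ggh and Prp2, and NOD-scid sample 4 stands apart from its group for Prol1 (76723) and Mucl1 (27685) but not for Bpifa2 (71.2).

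Markers of neighbouring tissues were read in the same samples, from lists written from general knowledge. Of 12 further parotid-type saliva genes only Prp2, Car6, Lpo and Pip were measured, and Car6, Lpo and Pip are high in both submandibular and lacrimal gland here, so they do not mark the parotid gland alone. Car6, the secreted carbonic anhydrase, read 118132 and 129871 in samples 2 and 3, against 44782 to 49775 in the other B6-scid and 21245 to 36310 in the NOD-scid lacrimal samples. The summed signal of samples 2 and 3 over the 4 genes was 307222 and 293526, against 161089 to 169830 in the other B6-scid and 226590 to 262296 in the NOD-scid samples. Over 16 submandibular genes of 23 listed, samples 2 and 3 summed to 201101 and 117751, the other 3 B6-scid samples to 64425 to 74466, and the submandibular glands to 454258 or more. Klk1, a kallikrein of the submandibular ducts, read 20293 and 6539 against 2444 to 2993 in the other B6-scid samples. Over 7 sublingual genes of 11 listed, samples 2 and 3 summed to 15144 and 15003, within the other B6-scid lacrimal samples (13294 to 15866). Smgc, a mucin-like protein of sublingual and neonatal submandibular gland, was at 50.3 and 66.2, but read 7715 or more in all submandibular samples here. Over 12 Harderian and sebaceous genes of 14 listed the sums were 5265 and 7962, against 5088 to 7001 in the other B6-scid samples. Tear gland transcripts were read too. Obp1a, an odorant-binding protein, read 148410 and 181012 in samples 2 and 3 and 62234 to 71750 in the other B6-scid samples. Ltf read 6010 in sample 2 and 13941 in sample 3, against 12915 to 14208 in those others. Lcn11, which is not on the lacrimal list, read 121617 and 122218 against 117665 to 143830. Mup5, on the lacrimal list like Obp1a, read 30549 and 26625 against 7422 to 10693. Over 6 lacrimal genes of 14 listed the sums ran from 86647 to 224188 in the B6-scid lacrimal samples, with a median of 100514. Obp1a alone put samples 2 and 3 above that median, so the lacrimal sum was high in them too. The part of each neighbouring tissue in the saliva protein signals was not tested.

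The submandibular mice with the most Bpifa2 were read the same way. At 9 weeks the mouse with the most Bpifa2, Amy1 and Smr3a, B6-scid sample 4, had the lowest submandibular sum of its group (665609, against 735785 to 1113940) and the lowest sublingual sum (14726, against 22549 to 141320). The sublingual sum does not mark sublingual tissue alone, since it lay between 39559 and 73281 in pancreas. Smgc, part of that sum, read 7715 in sample 4 and up to 135091 in its group. At 15 weeks B6-scid sample 3, at 20018 for Bpifa2, had the lowest submandibular sum (454258, against 534835 to 685451), and B6-scid sample 1, at 15142, had the highest sublingual sum (107765, against 22417 to 90598). The submandibular markers of these mice went opposite ways. Prol1 read 127302 in sample 1, the highest of its group, and 62089 in sample 3, the lowest. Klk1 read 108327 and 63616, again the highest and the lowest. Sample 1 was also the highest of its group for Dnase1, for Obp1a (13136, against 141 to 574) and for Lcn11 (2165, against 306 to 578), while sample 3 was not (147 for Obp1a and 578 for Lcn11). Both mice were high for Bpifa2 but unlike in Obp1a, and for Lcn11 sample 3 was the highest of its group after sample 1. In these 3 mice (B6-scid sample 4 of 9 weeks and samples 1 and 3 of 15 weeks) Prpmp5 was at 209.9, 190.0 and 197 on 98382_f_at and at 423, 36.9 and 58.6 on 98383_r_at, the first of these the highest of its group. Chia1 was at 293, 191 and 151. What these tissues contribute to Bpifa2 in submandibular gland was not tested.

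Obp1a and Agr2 were, like Dnase1, highest in lacrimal gland, and were read in submandibular gland beside it. Obp1a read 9857 to 24162 in B6-scid and 745 to 30157 in NOD-scid submandibular gland at 9 weeks, with no separation of the strains, and was lower at 15 weeks by -4.62 in B6-scid (SE 1.01, limma adjusted p = 0.0325) and by -7.31 in NOD-scid (SE 1.01, adjusted p = 0.00478). The B6-scid call ended without any 1 of 8 of the 20 samples (limma adjusted p 0.000634 to 0.0999802 over its 28 alternatives), and the NOD-scid call held in all 20. Agr2, a protein disulphide isomerase of mucous cells, differed between the strains as Dnase1 did. It read 696, 262, 743, 1072 and 793 in B6-scid submandibular gland at 9 weeks and 47.9, 86.1, 104, 169.7 and 12.97 in NOD-scid, without overlap (difference -2.73, SE 0.38, limma adjusted p = 0.000459). At 15 weeks the difference was -1.93 (SE 0.38, limma adjusted p = 0.0148), a call lost without B6-scid sample 4 or NOD-scid sample 2 of that age (up to 0.0618). In lacrimal gland Agr2 was higher in NOD-scid, by 1.07 (SE 0.18, limma adjusted p = 0.0278), a call that ended without any 1 of 8 of the 9 samples. Agr2 was not called there without B6-scid samples 2 and 3 together. The other 6 measured sublingual genes were called in none of the strain comparisons.

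Other saliva proteins of the proline-rich and SMR kind were read from a list of 12 genes. Of 8 measured genes, Smr3a and Prpmp5 included, Mucl1 was the only one called between strains. Mucl1, a mucin-like saliva protein, was higher in NOD-scid submandibular gland by 7.12 (SE 0.36) at 9 weeks and 6.49 (SE 0.36) at 15 weeks (limma adjusted p = 2.29e-10 and 9.77e-10), at 111822 to 180122 against 615 to 1988 at 9 weeks. Prol1 and Mucl2 overlapped between the strains in submandibular gland, at 106512 to 265089 and 115961 to 246181 at 9 weeks. With age Mucl2 was lower by -1.04 (SE 0.22, limma adjusted p = 0.0311) in B6-scid and -1.12 (SE 0.22, adjusted p = 0.0254) in NOD-scid, calls that ended after quantile normalization (0.793 and 0.745) and in 7 and 5 of the 20 fits without 1 sample. Of the 4 further parotid-type genes, Lpo, the lactoperoxidase of saliva and tears, was higher in NOD-scid at 9 weeks by 0.96 (SE 0.19, limma adjusted p = 0.0140), but 0.386 after quantile normalization. In lacrimal gland it was higher by 0.91 (SE 0.18, limma adjusted p = 0.0465), a call that ended whichever of the 9 samples was left out. Lpo was not called there without B6-scid samples 2 and 3 together. With age Pip, a secreted protein of saliva and tears, was lower by -1.01 (SE 0.20, limma adjusted p = 0.0191) in B6-scid and -1.08 (SE 0.20, adjusted p = 0.0182) in NOD-scid. Both calls ended after quantile normalization (0.461 and 0.516), and without B6-scid sample 3 or 4 and without NOD-scid sample 3 of 15 weeks. Car6 was lower with age in NOD-scid by -1.05 (SE 0.24, limma adjusted p = 0.0486), a call that held in 4 of the 20 fits without 1 sample.

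Across the 20 submandibular samples, Bpifa2 varied with Amy1 (Pearson r = 0.71) and with Dnase1 (0.75) and less with Smr3a (0.34), on the log2 scale. Amy1 varied with Smr3a (0.74) and Dnase1 (0.72), and Smr3a gave 0.37 with Dnase1. Prpmp5 did not follow them: on 98382_f_at it gave r = -0.46 with Bpifa2, -0.11 with Amy1, 0.17 with Smr3a and -0.02 with Dnase1 (92865_at). Of the family sums, all taken without the members, the proline-rich and SMR-type list gave r = -0.45 with Bpifa2. The amylases, then Amy2a5 alone, gave 0.31, the deoxyribonucleases 0.37 and the BPI fold list 0.45. These 20 points share 4 groups that differ in strain and age, and the members were chosen together, so the correlations are a description. Against the summed markers of neighbouring tissues Bpifa2 gave r = -0.20 with the sublingual, 0.32 with the lacrimal, -0.47 with the submandibular, -0.17 with the pancreatic acinar, -0.31 with the further parotid-type, -0.37 with the Harderian and sebaceous, -0.50 with the skeletal muscle, -0.29 with the adipocyte and -0.01 with the lymph node list.

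**Figure D4:**
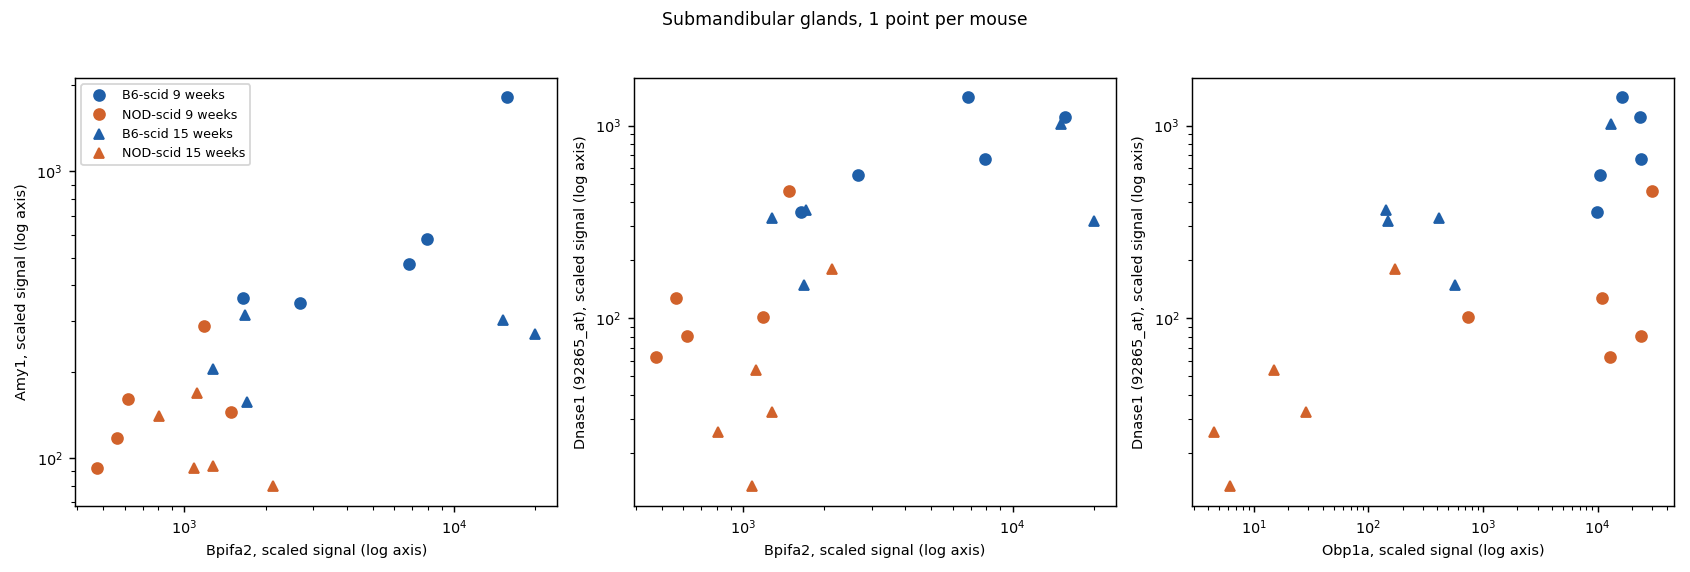
Scaled signals in the 20 submandibular samples, 1 point per mouse on log axes, for Amy1 against Bpifa2 (left), Dnase1 against Bpifa2 (middle) and Dnase1 against Obp1a (right), with strain by colour and age by symbol. B6-scid samples 1 and 3 of 15 weeks lie at 15142 and 20018 for Bpifa2 with Amy1 at 303 and 272, and for Dnase1 the NOD-scid mice lie between 13.5 and 457 and the B6-scid mice between 148 and 1398.

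The genes whose pattern was most like each saliva protein were ranked by Pearson correlation of log2 signals, 1 probe set per gene. For Smr3a over the 9 lacrimal samples these were Chia1 (r = 0.99), Tbc1d21, Tbc1d10a, Bmpr2 and Zfp580 (0.98 each). For Prpmp5 over the same samples they were Chia1 and Zfp580 (0.98 each), Tbc1d10a and Ggh (0.97 each) and Chmp1a (0.96). For Amy1 over the 29 submandibular and lacrimal samples they were Gm4736 (0.92), Chia1 (0.87), Ggh (0.86), St3gal6 (0.84) and Cldn22 (0.82). These 3 rankings rest on B6-scid lacrimal samples 2 and 3. For Bpifa2 over the 20 submandibular samples the closest were Aldh2, the mitochondrial aldehyde dehydrogenase (0.85), Cdo1, which breaks down cysteine, and Pink1 (0.84 each), Ube2b (0.83) and Tnrc6a (0.80). Over all 39 samples they were Abhd14b and Ring1 (0.78 each), Wwc1 (0.76), Arg1 (0.75) and Ctsh (0.74). Dnase1 over all 39 samples was most like Agr2 (0.96), Lcn11 (0.95), Fgfbp1, Obp1a and Cyp2b10 (0.93 each), all read across 3 glands of which 1 is high.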

How the data were processed

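RNA of each of 39 mouse gland samples was read on 3 Affymetrix MG-U74v2 array designs (A, B and C), 117 arrays. The deposited values are linear intensities, 1 per probe set, made with MAS5 per the submitters' processing notes; their trimmed mean was near 2501 on every array, so the authors had scaled them. Each array was rescaled to a mean of 500 after trimming 2% at each end, which divides all values of an array by 1 number. log2(signal + 32) was fitted with limma 3.58.1 (lmFit, eBayes; R 4.3.3), the 3 designs in 1 fit per gland, over probe sets at 100 or more on at least 4 samples, with Benjamini-Hochberg adjustment over all tested. A difference of a low probe set is understated on this scale. The 198 control probe sets were dropped. The platform annotation gave the gene names: 29197 probe sets had 1 symbol and 724 several, and 29110 matched RefSeq. Groups came from the labels, and each numbered replicate was taken as a separate mouse. Nothing else says that samples of a group are more than separate samples, so p-values measure the spread between these samples.

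The genes and gene lists were chosen with earlier results of these data known. Named besides them are the genes of their families, called genes of the marker lists, the 5 genes most correlated with each, and genes high in the same lacrimal samples, the last chosen after their values were seen. Scripts were tested on simulated data. Alternatives were other pseudocounts, no filter, quantile normalization, a replicate block, an RNA quality covariate (Actb 3' to 5' signal), 1 fit of all 39 samples and leaving out samples. Sequences are from RefSeq, GRCm38.p6. Tables and figures used Python 3.11.15, numpy 2.4.6, pandas 2.3.3, biopython 1.88 and matplotlib 3.10.9.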

Additional observations from a re-analysis of the deposited data

Results flagged for a closer look

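In 10 of the 56 groups of 4 or 5 values examined, 1 sample lay far from the others of its group. Chance gives about 1 in 20 for independent, normally distributed values. These groups share mice and hold skewed linear signals, some near the floor, so no excess is read from the count. The same mouse was far above its group for both Amy1 and Smr3a in submandibular gland at 9 weeks: B6-scid sample 4 read 1812 for Amy1 (348 to 579 in the others) and 1761 for Smr3a (218 to 649).

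In pancreas Bpifa2 read 95.9 in B6-scid sample 1 (317 to 390.1 in the others) and 222 in NOD-scid sample 1 (67.1 to 112). Dnase1 (160452_at) read 127 in B6-scid pancreas sample 5 (14.8 to 44.3). Dnase1 (92865_at) read 457 in NOD-scid submandibular sample 4 of 9 weeks (62.8 to 127), 1024 in B6-scid sample 1 of 15 weeks (148 to 366) and 180.3 in NOD-scid sample 5 of 15 weeks (13.5 to 53.8). That NOD-scid mouse also read 62.6 for Prpmp5 (98383_r_at), below the 324 to 390.1 of its group, and NOD-scid sample 5 of 9 weeks read 502 for Prpmp5 (98382_f_at), above 249 to 308.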

How the results depend on the processing

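Of the saliva protein differences, 815 of the values under alternatives moved by less than the spread between samples and 3 moved more: Amy1 in pancreas (0.75 with the RNA quality covariate), Dnase1 in lacrimal gland (0.80 without B6-scid samples 2 and 3 and NOD-scid sample 4) and Bpifa2 with age in NOD-scid (1.29 with the covariate). The sign changed in 16 of 780 planned values and in 0 of 38 chosen after seeing the data. In lacrimal gland that spread is itself set by B6-scid samples 2 and 3. Without them Prpmp5 went from -3.77 to -0.33 and from -2.81 to -0.90, Dnase1 (92865_at) from 0.24 to 0.77 and Bpifa2, then below the filter and not in the tally, from -5.55 to -1.94. Counts of called probe sets moved more. In pancreas 127 were called, 43 with the replicate block, 42 with the covariate and 295 in 1 fit of all 39 samples. In lacrimal gland 265 were called, 11 with the replicate block, 650 in the fit of all samples, 111 without B6-scid samples 2 and 3, and 36 without NOD-scid sample 4 as well. With age 340 were called in B6-scid and 256 in NOD-scid, and 908 and 700 in the fit of all samples. The cause was not tested. Leaving out 1 sample gave 88 to 130 in pancreas, 211 to 301 (of 302) and 133 to 178 (of 178) for the strains in submandibular gland at 9 and 15 weeks, 123 to 203 in lacrimal gland, and 75 to 364 and 66 to 315 with age. The replicate block gave 225 and 158 for the strains in submandibular gland and 259 and 209 with age. Same-numbered samples deviated together only weakly, with a correlation of -0.0622 to 0.0850. The closest match had the same number for 4 of 5 samples between the strains in submandibular gland at 9 weeks. It had the same number for 3 of 4 in lacrimal gland, 3 of 5 with age in NOD-scid and 1 of 5 in each other comparison. The main fit did not pair samples by number, and whether the numbers pair them was not settled. Signals near the bottom of the scale limit what low probe sets show.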

Other observations

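Prol1 and Mucl1 set 1 NOD-scid lacrimal sample apart from its own group. Sample 4 read 76723 for Prol1, against 1259 to 2043 in the other 3, and 27685 for Mucl1, against 492 to 1772. Its summed signal over 16 submandibular genes was 116677, against 6157 to 7465. In the 5 B6-scid lacrimal samples Prol1 read 39542 to 97806 and the sum was 64425 to 201101, so neither was peculiar to sample 4 across the strains, while Mucl1 read 72.4 to 159 there. In sample 4 Bpifa2 (71.2), Amy1 (16.6) and Smr3a (47.8) were below 100, as in the other 3, and Prpmp5 (98382_f_at) read 224, against 54.7 to 312.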
